A study of Mus musculus with 23 samples.

Results

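The diet-by-genotype interaction between IL-10/4 dKO and IL-4 KO mice is described here across 12891 genes of the liver. It is the diet effect in double knockouts (dKO_HFD minus dKO_chow) minus the diet effect in IL-4 knockouts (IL4KO_HFD minus IL4KO_chow), on the log2 scale. A positive value means that high-fat feeding moved a gene higher in the double knockouts than in the IL-4 knockouts, and a negative value the reverse. The 4 group means in it come from 15 of the 23 RNA-seq libraries of the study, chosen by their genotype and diet labels. The model was fitted to all 23, so the 8 libraries of wild-type (WT) mice, 4 in WT_chow and 4 in WT_HFD on the same diets, share in the estimate of the spread, and the 15 alone gave 2506 called genes in place of 3144. IL4KO_chow holds 4 mice of genotype IL-4 KO on normal chow, and IL4KO_HFD holds 3 such mice on a diet with 60% of its energy from fat. dKO_chow and dKO_HFD hold 4 mice each of genotype IL-10/4 dKO on the same diets. All were males, WT included, on a C57Bl/6 background from 1 supplier, obtained at 6 to 8 weeks of age and fed for 15 weeks, and all 15 knockout mice carry the IL-4 knockout label, so the comparison asks what the added loss of IL-10 goes with. How the alleles were made, how the mice were housed and the hour of collection are not given. Replicate numbers below follow the order of the records and pair no mice.

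IL-4 is a type 2 cytokine that acts on macrophages, lymphocytes and hepatocytes through STAT6. IL-10 is an anti-inflammatory cytokine that restrains myeloid cells through STAT3, and mice without it are known for spontaneous inflammation, chiefly of the gut, whose venous blood drains to the liver. High-fat feeding loads the liver with lipid, induces PPARA-driven fatty acid oxidation and, with time, recruits macrophages and activates the stellate cells that lay down collagen.

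The labels and libraries were checked first. Depth, given in 1e6 counts per library, was 7.11 to 11.2 in IL4KO_chow, 7.79 to 8.94 in IL4KO_HFD, 16.2 to 30.2 in dKO_chow and 12.7 to 25.5 in dKO_HFD, so depth moved with genotype and its part in the results was tested only by thinning all libraries to the smallest. Liver genes were high in all of them, with Alb at 59234 to 98976 CPM (counts scaled to the library total) and Apoa1 at 6926 to 11562 CPM. Il4 (chr11:53612460-53618665) had 0 to 3 counts in every library and was not tested. Il10 (chr1:131019845-131024970) had 41, 67, 41 and 64 counts in dKO_chow and 6, 8, 17 and 21 in dKO_HFD, against 2, 0, 0 and 0 in IL4KO_chow and 0 in each IL4KO_HFD library. Every library labelled dKO thus had more Il10 counts than any IL4KO library, which alone cannot decide whether the label holds. A count per gene cannot tell which exons an allele lacks, and dKO below always means the libraries labelled dKO. The Il10 interaction was 1.26 and not called (FDR 0.644), and its sign turned with the processing. On the deposited log2 values it was -1.04 and passed the threshold (limma, adjusted p 0.0398), and over all alternatives it ran from -1.59 to 1.73.

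Several libraries stood apart from their groups. On the first principal component of the 15 libraries, which held 52.2% of the variance, dKO_chow scored 55.8 to 67.7 and IL4KO_chow -41.8 to -27.9. Replicates 1 to 3 of dKO_HFD scored -24.3, -27.6 and -18.4, while its replicate 4 scored 32.8, toward dKO_chow. On the second component (15.2%) the IL4KO_HFD libraries spread to -29.5, -68.3 and 4, with replicate 2 at the far end. Counts of interaction calls, over all genes and in lists with 3 or more, are therefore also given without IL4KO_HFD replicate 2 and without dKO_HFD replicate 4.

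Called means a false discovery rate (FDR) below 0.05 in edgeR's quasi-likelihood test over all tested genes. The diet response differed between the genotypes at 3144 genes, 24.4% of those tested, of which 1636 (12.7%) were called higher in the interaction and 1508 (11.7%) lower. The lower calls were larger in size, with a median interaction of -1.37 against 0.60 for the higher calls. Leaving aside genes at 0 in every library of a group, 1014 lower and 374 higher calls were at least 2-fold, and 395 lower and 92 higher calls at least 4-fold. Without IL4KO_HFD replicate 2 the calls fell to 1293 genes, 856 higher and 437 lower, and 1276 of these were also called with all libraries. Without dKO_HFD replicate 4 they numbered 4190, 2147 higher and 2043 lower. Upper quartile scaling moved the median of all genes by -0.094 and the split to 1157 higher and 1887 lower, and the deposited log2 values gave 1152 higher and 1735 lower.

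**Figure D1:**
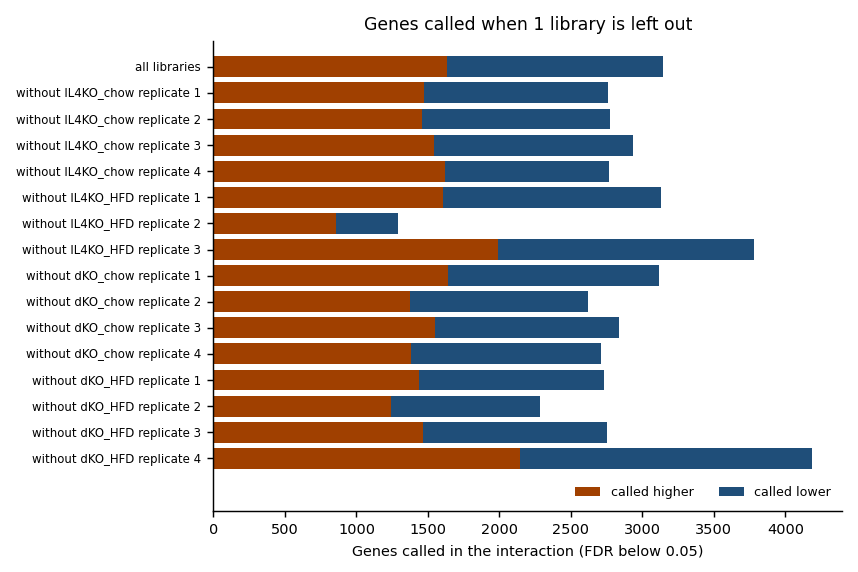
Genes called in the interaction (horizontal axis, number of genes at FDR below 0.05) with all libraries and with each of the 15 knockout libraries left out in turn (rows). Orange is called higher and blue called lower. The total runs from 1293 without IL4KO_HFD replicate 2 to 4190 without dKO_HFD replicate 4.

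Most of the called genes differed between genotypes on chow more than on the high-fat diet. The chow gap exceeded the high-fat gap for 1410 of the 1636 higher calls and 1313 of the 1508 lower calls, against 8845 of the 12891 tested genes. It did so for 1222 of 1293 calls without IL4KO_HFD replicate 2 and for 3643 of 4190 without dKO_HFD replicate 4. Genes called higher had a median dKO minus IL4KO difference of -0.53 on chow and 0.10 on the high-fat diet. Genes called lower had 1.13 on chow and -0.21 on the high-fat diet. Read along the diet, the higher calls had a median diet effect of 0.42 in dKO and -0.20 in IL4KO, and the lower calls -0.79 in dKO and 0.49 in IL4KO. For 1261 higher calls the estimate was positive in dKO and negative in IL4KO, and for 1346 lower calls the reverse. These numbers were 593 and 376 without IL4KO_HFD replicate 2, and 1478 and 1671 without dKO_HFD replicate 4. Each of these effects shares libraries with the interaction, so they restate it from its sides.

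The separate comparisons were of unequal reach. High-fat feeding changed 5153 genes in dKO (40%, with 19.4% higher and 20.5% lower) and 1170 in IL4KO (9.08%, with 5.14% higher and 3.94% lower). The genotypes differed at 5822 genes on chow (45.2%) and at 323 on the high-fat diet (2.51%). The dKO diet count was 5583 without IL4KO_HFD replicate 2 and 5962 without dKO_HFD replicate 4, and the chow genotype count 6232 and 6056. The IL4KO diet count was 1510 without dKO_HFD replicate 4, 236 without IL4KO_HFD replicate 2, 2030 without IL4KO_HFD replicate 3, 712 without IL4KO_chow replicate 1 and 733 without IL4KO_chow replicate 3. The high-fat genotype count was 93, 39 and 1241 without IL4KO_HFD replicates 1, 2 and 3, and 106 and 118 without dKO_HFD replicates 2 and 4. The diet effect in the 8 WT libraries, which shares no library with the interaction, lay nearer the IL4KO than the dKO diet effect for 1327 of the higher calls and 1282 of the lower calls, against 8479 of all 12891 genes. Without IL4KO_HFD replicate 2 this held for 747 of 856 higher and 371 of 437 lower calls, and without dKO_HFD replicate 4 for 1823 of 2147 and 1761 of 2043. Median WT diet effects were -0.03 over the higher calls and 0.20 over the lower calls, smaller in size than those in IL4KO. The WT diet effect was called higher at 8.86% and lower at 13.2% of the higher calls. At the lower calls these shares were 16% and 3.12%, and over all genes 9.63% and 9.84%. Lying nearer IL4KO thus does not mean an equal response.

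**Figure D2:**
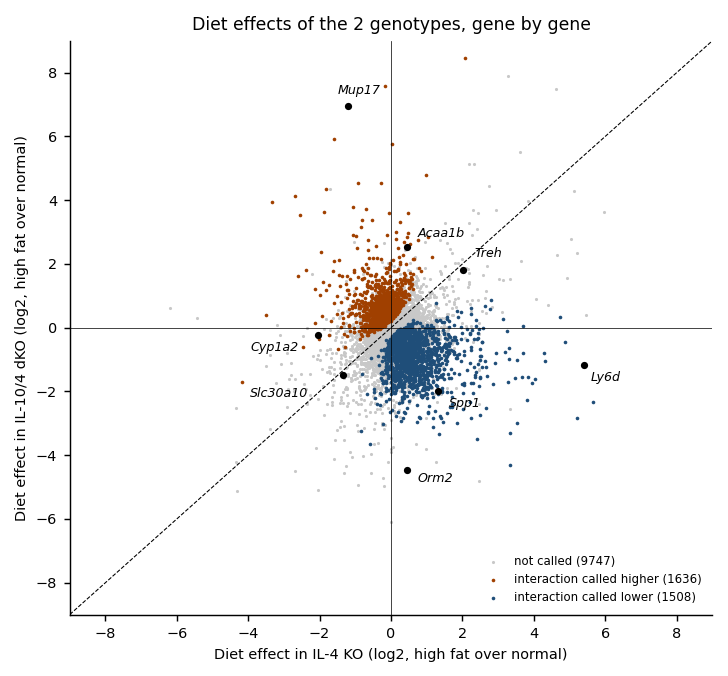
Diet effect of each gene in IL-4 KO (horizontal axis) and in IL-10/4 dKO (vertical axis), both log2 of high fat over normal, with 1 gene outside the plotted range of 9. The dashed line marks equal effects, so the 1636 genes called higher (orange) lie above it and the 1508 called lower (blue) below it, and genes with a shared response such as Slc30a10 and Treh lie near it.

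The members of 40 gene lists, 25 for pathways and 15 for cell types, were counted by call. With all libraries 31 lists had at least 3 called members, and 16 had without IL4KO_HFD replicate 2. Members of the lists of amino acid breakdown, fatty acid oxidation, oxidative phosphorylation, xenobiotic metabolism and bile acids were called mostly higher, and members of the inflammation, macrophage, matrix and cell cycle lists mostly lower. Lipogenesis, lipid droplet and cholesterol synthesis genes did not follow the other metabolic lists. No test of a list as a whole was run, and each share called is to be read beside the 12.7% higher and 11.7% lower of all tested genes. Counts of diet calls are to be read beside 19.4% higher and 20.5% lower of all genes in dKO, and 5.14% and 3.94% in IL4KO. The median interaction over all tested genes was -0.00166, and list medians are to be read beside it. These are bulk livers, in which fewer cells of a type and less RNA per cell cannot be told apart.

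**Figure D3:**
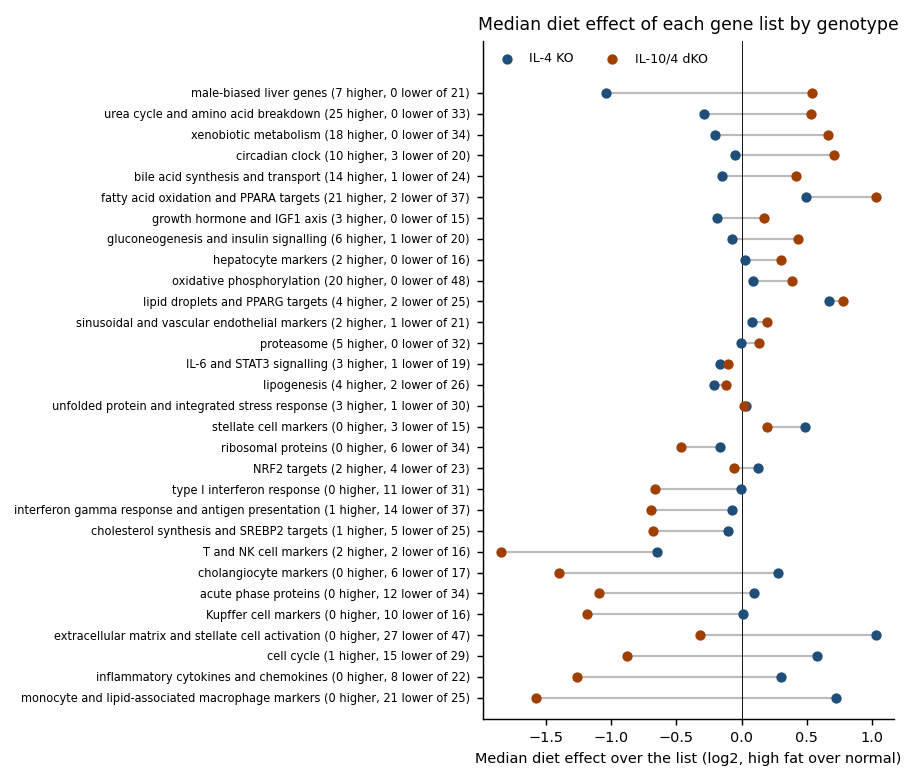
Median diet effect (log2, high fat over normal) of gene lists in IL-4 KO (blue) and IL-10/4 dKO (orange), ordered by median interaction, with the number of members called higher and lower in the interaction. Several metabolic lists lie to the right in dKO, such as urea cycle and amino acid breakdown at 0.53 against -0.29, and macrophage lists to the left, such as monocyte and lipid-associated macrophage markers at -1.57 against 0.72.

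Urea cycle and amino acid breakdown showed the most complete shift of the metabolic lists. Of 33 genes, 25 (75.8%) were called higher in the interaction and 0 lower, with a median of 0.96, and 24 rose with the diet in dKO while 8 fell in IL4KO (1 without IL4KO_HFD replicate 2). The call count was 21 without IL4KO_HFD replicate 2 and 28 without dKO_HFD replicate 4. Otc (chrX:10252230-10321024) encodes ornithine transcarbamylase, the mitochondrial enzyme that makes citrulline. It was at 544, 519.5, 446 and 572 CPM in IL4KO_chow and 473, 334 and 474 CPM in IL4KO_HFD. In dKO it was at 239, 216, 215 and 198 CPM on chow and 466, 489.6, 437 and 337 CPM on the high-fat diet. The dKO_chow libraries were the 4 lowest, and the lowest library of each high-fat group was IL4KO_HFD replicate 2 and dKO_HFD replicate 4. The interaction was 1.28 (SE 0.173, FDR 0.000349), from a rise of 0.997 in dKO and a change of -0.29 in IL4KO (FDR 0.157).

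Cps1 (chr1:67122426-67231267) encodes the carbamoyl phosphate synthetase that starts the urea cycle. Its levels were 6136, 5671, 5471 and 5769 CPM in IL4KO_chow and 3674, 1879.5 and 4285 CPM in IL4KO_HFD, with no overlap. Levels in dKO_chow were 2918, 2495, 2547 and 2074 CPM and in dKO_HFD 4106, 5576, 4793 and 3409.5 CPM, again with no overlap and in the other direction. The interaction was 1.65 (SE 0.28, FDR 0.000977), and both diet effects were called, at 0.83 in dKO (FDR 0.00146) and -0.81 in IL4KO (FDR 0.0166). Hal, the histidine ammonia lyase gene, gave an interaction of 1.58 (SE 0.261, FDR 0.000904), and Slc25a13, a mitochondrial aspartate and glutamate carrier gene, 0.99 (SE 0.167, FDR 0.000918). The 8 members that were not called had values of 0.05 to 1.24, Tat with the largest.

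Fatty acid oxidation and PPARA target genes responded to the diet in both genotypes, more so in dKO. Of 37 genes, 21 (56.8%) were called higher in the interaction and 2 lower (median 0.50), with a median diet effect of 1.03 in dKO and 0.49 in IL4KO. The diet raised 34 of them in dKO and 14 in IL4KO (7 without IL4KO_HFD replicate 2 and 24 without dKO_HFD replicate 4), and 0 fell in either. The median dKO minus IL4KO difference over the list was -0.81 on chow and -0.27 on the high-fat diet, so the larger rise in dKO began from a lower level. The 2 lower calls, chosen for mention after their values were seen, were Pdk4, an inhibitor of pyruvate dehydrogenase, at -2.39 (FDR 0.0193, and 0.144 without IL4KO_HFD replicate 2) and Fgf21, a hormone of fasting and stress, at -2.86 (FDR 0.00662, and limma-voom adjusted p 0.105). Acaa1b (chr9:119148043-119157093), a peroxisomal thiolase, was at 1179.7, 1185, 852 and 1600.2 CPM in IL4KO_chow and 1802, 1927 and 1196 CPM in IL4KO_HFD. In dKO it went from 144, 166, 172 and 161 CPM on chow to 1324, 909, 1163 and 346 CPM on the high-fat diet, where replicate 4 was lowest. Its interaction was 2.09 (SE 0.435, FDR 0.00311). Fabp1, the liver fatty acid binding protein gene, gave 1.03 (FDR 0.00306), Acsl1, which activates long-chain fatty acids, 1.33 (FDR 0.00445), and Cpt2, of the mitochondrial carnitine shuttle, 0.91 (FDR 0.00531). The count of 21 was 9 without IL4KO_HFD replicate 2, 11 without dKO_chow replicate 2, 13, 11 and 13 without dKO_HFD replicates 1, 2 and 3, and 30 without dKO_HFD replicate 4.

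Genes of oxidative phosphorylation moved by smaller amounts. Of 48 genes, 20 (41.7%) were called higher and 0 lower (median 0.27), and 40 rose with the diet in dKO against 2 in IL4KO (0 without IL4KO_HFD replicate 2). Calls fell in complexes I, II, III and V, while 0 of 10 Cox genes of complex IV were called (values 0.04 to 0.30), with Ndufs1 of complex I at 0.66 (SE 0.133, FDR 0.00222), Sdha of complex II at 0.72 (SE 0.144, FDR 0.00218) and Uqcrc1 of complex III at 0.52 (SE 0.117, FDR 0.00407). Sdhb (chr4:140961271-140979198), the iron-sulfur subunit of complex II, was at 212, 201, 171 and 228 CPM in IL4KO_chow and 207, 174 and 190.4 CPM in IL4KO_HFD. Levels in dKO were 117, 106, 102 and 104 CPM on chow and 168, 195, 173 and 143 CPM on the high-fat diet. The dKO_chow libraries were below all others and the IL4KO groups overlapped, which gave an interaction of 0.76 (SE 0.138, FDR 0.00125). The list count was 8 without IL4KO_HFD replicate 2, 12 without dKO_HFD replicate 2, 30 without dKO_HFD replicate 4 and 8 with upper quartile scaling.

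Xenobiotic metabolism was called higher in 18 of 34 genes and lower in 0 (median 0.74), with 14 calls without IL4KO_HFD replicate 2 and 22 without dKO_HFD replicate 4. The diet raised 20 of them in dKO and lowered 6 in IL4KO. Cyp1a2 (chr9:57676937-57683655), a cytochrome P450 of drug and caffeine metabolism found around the central vein, had a called diet effect in IL4KO and not in dKO. It was at 555, 569, 459.7 and 519 CPM in IL4KO_chow and 157, 76.6 and 149.8 CPM in IL4KO_HFD. In dKO its levels on the 2 diets overlapped, 360.4, 371, 327 and 335 CPM on chow and 317, 412, 188 and 281 CPM on the high-fat diet. The interaction was 1.82 (SE 0.32, FDR 0.0012). The diet effect was -2.04 in IL4KO (FDR 0.000108) and -0.22 in dKO (FDR 0.438). Aox3, an aldehyde oxidase gene, gave 1.93 (FDR 0.001), Cyp2f2, a P450 gene of periportal hepatocytes, 1.43 (FDR 0.0012), and Ugt2b1, a glucuronosyltransferase gene, 2.26 (FDR 0.00161). Cyp2f2 and Ugt2b1 also fell with the diet in IL4KO, by 0.75 (FDR 0.0163) and 1.19 (FDR 0.0198). Members of the Cyp2c and Ugt2b families share sequence, so the split of reads between them is uncertain.

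Bile acid synthesis and transport was called higher in 14 of 24 tested genes and lower in 1 (median 0.61), with 9 higher calls without IL4KO_HFD replicate 2 and 16 without dKO_HFD replicate 4. The lower call was Nr0b2, the bile acid-responsive repressor SHP, at -1.01 (FDR 0.0351), named after its value was seen. That call was lost under 13 of 28 alternatives, among them leaving out IL4KO_HFD replicate 2 (FDR 0.0646). Abcc2 (chr19:43782308-43838332), which exports conjugates into bile, was at 421, 394, 363 and 407 CPM in IL4KO_chow, 364, 309 and 346 CPM in IL4KO_HFD, 179, 172, 179.8 and 137 CPM in dKO_chow and 305, 361, 399 and 269 CPM in dKO_HFD. Only dKO_chow was set apart from the other groups without overlap, and the interaction was 1.22 (SE 0.186, FDR 0.000671). Abcb11, the bile salt export pump gene, gave 0.84 (FDR 0.0041), Slco1b2, a sinusoidal uptake carrier gene, 0.87 (FDR 0.00431), and Abcg8, a sterol exporter gene, 0.96 (FDR 0.00448). For Abcb11 the diet effect was -0.79 in IL4KO and 0.05 in dKO, whereas for Slco1b2 it was 0.05 and 0.92, so the same sign of interaction came from opposite sides.

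Glucose and lipid synthesis genes were less uniform. Gluconeogenesis and insulin signalling was called higher in 6 of 20 genes and lower in 1, with Slc2a2, the hepatocyte glucose transporter gene, at 1.06 (SE 0.176, FDR 0.000904) and Slc37a4, the glucose 6-phosphate transporter gene, at 0.78 (SE 0.149, FDR 0.00173). Those 6 were 5 without IL4KO_HFD replicate 2 and 9 without dKO_HFD replicate 4. Lipid droplet and PPARG target genes had similar median diet effects in dKO (0.78) and IL4KO (0.67), and 4 of 25 were called higher and 2 lower (16% and 8%, near the shares over all genes), among them Fitm1, a lipid droplet budding gene, at 1.95 (FDR 0.00368), Dgat2, the last enzyme of triglyceride synthesis, at 0.62 (FDR 0.00416), and Plin3, a droplet coat gene, at -0.55 (FDR 0.018). The 4 were 2 without IL4KO_HFD replicate 2, dKO_chow replicate 1, dKO_HFD replicate 1 or dKO_HFD replicate 2, and with upper quartile scaling, but 11 without dKO_HFD replicate 4. Plin3 was not called without IL4KO_HFD replicate 2 (FDR 0.125). Lipogenesis gave 4 higher and 2 lower calls of 26 (15.4% and 7.69%, median 0.04), also near the 12.7% and 11.7% over all genes, with Gpam, which starts glycerolipid synthesis, at 0.92 (FDR 0.00477), Lpin1, a phosphatidate phosphatase, at 2.07 (FDR 0.00863), Mlxipl, which encodes the glucose-sensing factor ChREBP, at 0.61 (FDR 0.00709), and Scd2, a desaturase, at -2.49 (FDR 0.00253). Its 4 higher calls were 3 without IL4KO_HFD replicate 2 and 7 without dKO_HFD replicate 4.

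Cholesterol synthesis ran the other way. Of 25 SREBP2 target genes, 5 were called lower and 1 higher (median -0.65), and 17 fell with the diet in dKO (11 without dKO_HFD replicate 3) against 1 in IL4KO (4 without IL4KO_HFD replicate 3). Mvd, of the mevalonate pathway, gave -1.81 (SE 0.511, FDR 0.0165, and limma-voom adjusted p 0.0534), with group means of 13.8 CPM in IL4KO_chow, 14.1 in IL4KO_HFD, 59.7 in dKO_chow and 17.6 in dKO_HFD. Hmgcs1, which makes the HMG-CoA of the pathway, gave -1.23 (FDR 0.0107). The count of 5 was 6 without IL4KO_HFD replicate 2 and 7 without dKO_HFD replicate 4.

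**Figure D4:**
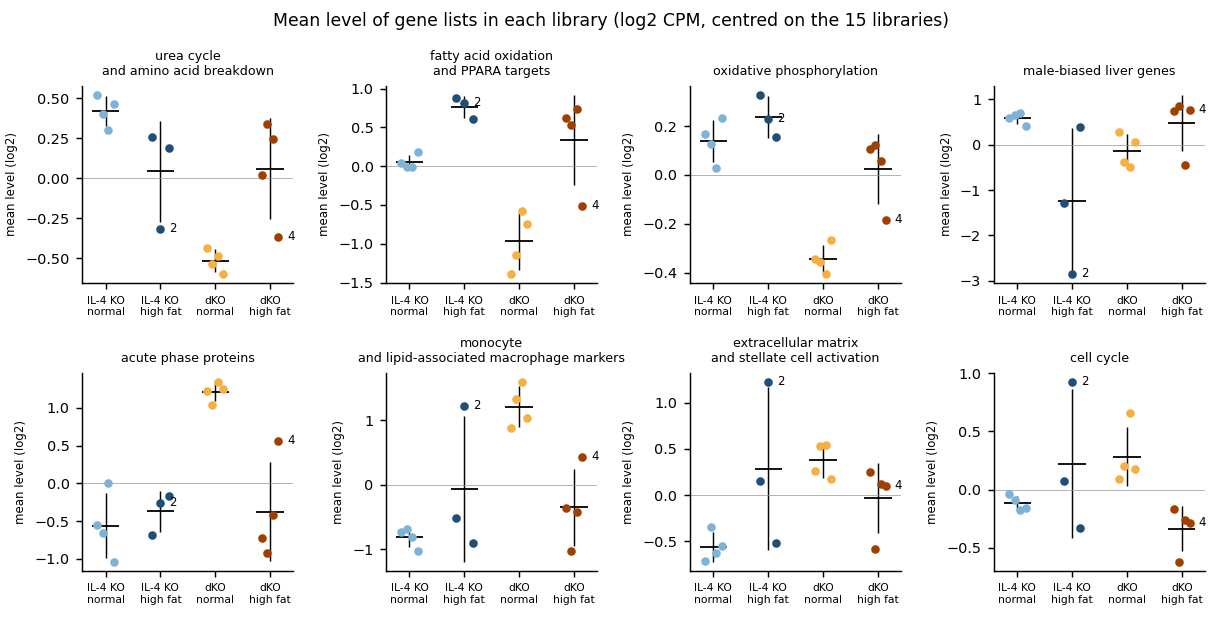
Mean level of 8 gene lists in each of the 15 libraries (points, log2 CPM centred on the libraries), with the group mean (bar) and SD (line), and with IL4KO_HFD replicate 2 and dKO_HFD replicate 4 numbered. Replicate 2 of IL4KO_HFD is at 1.22 for extracellular matrix, where its group runs from -0.52, and replicate 4 of dKO_HFD is at 0.56 for acute phase proteins, where its group runs from -0.93.

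Genes of male-biased liver expression, which depend on the pulsatile growth hormone pattern of males, were called higher in 7 of 21 cases and lower in 0, and all 21 had positive values (median 1.67). The high-fat side carried more of this difference than the chow side, with median dKO minus IL4KO differences of 1.19 and -0.63. Selenbp2 (chr3:94693573-94704406), a selenium-binding protein gene, was at 418, 420.2, 309 and 273 CPM in IL4KO_chow and 41.3, 34.4 and 201 CPM in IL4KO_HFD. In dKO it was at 302, 93.5, 68.9 and 229 CPM on chow and 1230.5, 1322, 226 and 838 CPM on the high-fat diet, and replicates 1, 2 and 4 of dKO_HFD lay above every other library while IL4KO_HFD lay below IL4KO_chow without overlap. Its interaction was 4.33 (SE 1.03, FDR 0.00696), that of Cyp7b1, an oxysterol hydroxylase gene, 2.84 (FDR 0.00877), and that of Cyp2d9, a male-specific P450 gene, 1.37 (FDR 0.00701). The mean level of the list in the IL4KO_HFD libraries was -1.28, -2.84 and 0.38, a wide spread, and the count of 7 was 4, 3 and 16 without replicates 1, 2 and 3 of that group, 4 without dKO_HFD replicate 1 and 8 without dKO_HFD replicate 4. Among 14 female-biased genes tested, 3 were called lower, 0 without IL4KO_HFD replicate 2 and 3 without dKO_HFD replicate 4. Of 15 genes of the growth hormone and IGF1 axis 3 were called higher, including the receptor gene Ghr at 0.92 (SE 0.176, FDR 0.00167). That count was 1 without IL4KO_HFD replicate 2, IL4KO_chow replicate 1 or 3, dKO_chow replicate 3, or dKO_HFD replicate 2 or 3, was also 1 with upper quartile scaling, and was 6 without IL4KO_HFD replicate 3 and 4 without dKO_HFD replicate 4.

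The circadian clock list gave 10 higher and 3 lower calls of 20 (median 0.68). Tef (chr15:81802673-81826863), a clock output transcription factor gene, was at 193, 204, 222 and 232 CPM in IL4KO_chow, 219, 140.3 and 243 CPM in IL4KO_HFD, 86.1, 110.4, 70.8 and 66.9 CPM in dKO_chow and 235, 256, 205 and 183 CPM in dKO_HFD. The dKO_chow libraries were the 4 lowest, and the interaction was 1.48 (SE 0.261, FDR 0.0012). Nr1d2, which encodes the repressor REV-ERB beta, gave 0.94 (FDR 0.001), Hlf, a relative of Tef, 0.85 (FDR 0.00222), and Usp2, a rhythmic deubiquitinase gene, 2.63 (FDR 0.00416). The 3 lower calls, named after their values were seen, were Arntl, which encodes the activator BMAL1, at -1.39 (FDR 0.0104), its partner Npas2 at -3.05 (FDR 0.022) and Nfil3, a repressor of the Tef family's targets, at -0.93 (FDR 0.0358). Without IL4KO_HFD replicate 2 Arntl (FDR 0.0648) and Npas2 (FDR 0.223) were not called, and Nfil3 lost its call under 15 of 28 alternatives. Higher calls numbered 7 without IL4KO_HFD replicate 2 and 11 without dKO_HFD replicate 4, and lower calls 1 and 2. The hour at which each liver was taken is not given, and its part was not tested.

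Acute phase proteins, secreted by hepatocytes in response to IL-6 and IL-1, were called lower in 12 of 34 tested genes and higher in 0 (median -1.15). The list was raised in dKO_chow, by a median of 1.34 over IL4KO_chow, and 24 members fell with the diet in dKO (15 without dKO_HFD replicate 2) while 0 fell and 3 rose in IL4KO (1 without IL4KO_HFD replicate 2). The count of 12 was 4 without IL4KO_HFD replicate 2, 7 without IL4KO_chow replicate 1, IL4KO_chow replicate 4 or dKO_HFD replicate 1, and 23 without dKO_HFD replicate 4. Hp (chr8:109575128-109579172), which encodes the haemoglobin scavenger haptoglobin, was at 3356, 2931, 5326 and 2849 CPM in IL4KO_chow and 4378, 5308 and 5533 CPM in IL4KO_HFD. Its levels were 12093, 11573, 12839 and 14620 CPM in dKO_chow and 3740.5, 3784, 4403 and 9395 CPM in dKO_HFD, where replicate 4 lay between its group and dKO_chow. The interaction of Hp was -1.75 (SE 0.395, FDR 0.00445). Cp, the copper carrier ceruloplasmin, gave -1.09 (SE 0.198, FDR 0.00125), Lbp, the lipopolysaccharide-binding protein, -1.17 (FDR 0.0117, and 0.0503 without IL4KO_HFD replicate 2), and Il1rn, the IL-1 receptor antagonist, -2.15 (FDR 0.00409). Saa1, serum amyloid A, had a value of -2.98 that was not called (FDR 0.229), and was called without dKO_HFD replicate 4 (FDR 0.0175).

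Orm2 (chr4:63362449-63365877), an alpha-1 acid glycoprotein gene, had the lowest interaction value of the 12 called members. It was at 18.1, 17.2, 68.6 and 6.69 CPM in IL4KO_chow and 17.3, 67.6 and 25.8 CPM in IL4KO_HFD. In dKO_chow it was at 1664, 1687, 2067 and 1404 CPM, and in dKO_HFD at 20.3, 8.7, 16.7 and 267 CPM, with replicate 4 far above its group. The interaction was -4.89 (SE 1.53, FDR 0.0278) and was not called without IL4KO_HFD replicate 2 (FDR 0.117), IL4KO_chow replicate 1, 2 or 4, or dKO_HFD replicate 1. Reads of Orm2 and its near-identical relatives cannot be assigned with certainty. Steap4, a metalloreductase gene, was at 268, 249, 290 and 183 CPM in IL4KO_chow and 177, 232 and 282 CPM in IL4KO_HFD. Levels of Steap4 were 998, 558, 785 and 1022 CPM in dKO_chow and 268, 218, 321 and 629.5 CPM in dKO_HFD, for an interaction of -1.12 (SE 0.395, FDR 0.0444). Serpina3g, a protease inhibitor gene of a clustered family with similar copies, was at 7.42, 6.95, 6.01 and 6.13 CPM in IL4KO_chow and 5.37, 16.2 and 5.53 CPM in IL4KO_HFD. It was at 14.5, 12.6, 21.2 and 21.8 CPM in dKO_chow and 8.05, 7.01, 6.22 and 14.4 CPM in dKO_HFD, with an interaction of -1.44 (SE 0.507, FDR 0.0446). Steap4 lost its call under 15 of 28 alternatives and Serpina3g under 16, and neither was called without IL4KO_HFD replicate 2 (FDR 0.113 and 0.37). All 3 were high in dKO_chow and lower in dKO_HFD replicates 1 to 3, with replicate 4 in between or overlapping dKO_chow.

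The promoters of these 3 genes are shown because they are called members whose promoter held a searched motif, so each match below was a ground for the choice. Acute phase genes are textbook targets of STAT3 and C/EBP factors, and the part of these factors was not tested. Each run is 250 bases before to 50 after the RefSeq start site in GRCm38.p6, and capitals mark the match to a searched motif, TTGCGCAA (C/EBP) in Orm2 and TTCNNNGAA (STAT) in the others.
Orm2, chr4:63362199-63362498, plus strand, match starting 120 bases before the start site: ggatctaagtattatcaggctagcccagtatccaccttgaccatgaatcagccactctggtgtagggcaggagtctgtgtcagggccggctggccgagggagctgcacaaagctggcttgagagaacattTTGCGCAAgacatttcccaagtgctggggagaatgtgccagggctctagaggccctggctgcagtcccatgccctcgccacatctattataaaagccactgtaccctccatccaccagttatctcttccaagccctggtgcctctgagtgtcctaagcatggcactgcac
Steap4, chr5:7960222-7960521, plus strand, match starting 116 bases before the start site: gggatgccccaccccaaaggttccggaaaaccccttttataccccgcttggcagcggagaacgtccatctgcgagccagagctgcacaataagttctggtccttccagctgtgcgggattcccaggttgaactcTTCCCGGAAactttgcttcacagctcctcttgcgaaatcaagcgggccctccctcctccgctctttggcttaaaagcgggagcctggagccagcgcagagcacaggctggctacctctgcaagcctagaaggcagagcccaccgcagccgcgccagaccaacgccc
Serpina3g, chr12:104235897-104236196, plus strand, match starting 33 bases before the start site: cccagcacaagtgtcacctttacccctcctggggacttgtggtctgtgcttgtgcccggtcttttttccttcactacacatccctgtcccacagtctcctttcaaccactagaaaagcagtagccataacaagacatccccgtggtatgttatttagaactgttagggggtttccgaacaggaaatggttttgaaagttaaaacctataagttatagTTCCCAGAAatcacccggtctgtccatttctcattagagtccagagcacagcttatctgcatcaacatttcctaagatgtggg

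Both strands were searched, and both of these motifs read the same on either strand. Of the 12 called acute phase genes 9 had a promoter in the table, of which 3 held the STAT motif (Steap4, Serpina3g and Apcs) and 1 the C/EBP motif, and 0 held the NF-kB motif of the immunoglobulin kappa enhancer or the DR1 nuclear receptor motif, AGGTCA repeated after 1 base. Over all 27025 genes with a promoter the shares were 9.55% for STAT, 0.207% for C/EBP, 0.174% for NF-kB and 0.0481% for DR1. Of the 23 called members of the fatty acid oxidation list, 19 had a promoter and 0 held DR1 in this window. A match is a description of these letters only.

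Markers of monocytes and lipid-associated macrophages gave the highest share of calls of any list with more than 3 tested members. Of 25 tested, 21 (84%) were called lower and 0 higher (median -2.51), and 21 fell with the diet in dKO while 4 rose in IL4KO (0 without IL4KO_HFD replicate 2, and 9 with replicate 3 of that group left out). The count was 7 without IL4KO_HFD replicate 2 and 22 without dKO_HFD replicate 4. Summed over the list, the level was 652 to 744 CPM in IL4KO_chow and 694, 1274 and 633 CPM in IL4KO_HFD. It was 1496 to 2055 CPM in dKO_chow and 748.5, 620.2, 733 and 1045 CPM in dKO_HFD. Spp1 (chr5:104435111-104441053), which encodes the matrix protein and cytokine osteopontin and is also on the matrix and cholangiocyte lists, was at 31.8, 29.4, 33.7 and 35.8 CPM in IL4KO_chow and 43.5, 163 and 37.8 CPM in IL4KO_HFD. In dKO it was at 563, 737, 776 and 421 CPM on chow and 143, 94.2, 117 and 269.7 CPM on the high-fat diet, so dKO_chow lay above all other groups and IL4KO_HFD replicate 2 reached into the dKO_HFD range. The interaction was -3.32 (SE 0.564, FDR 0.00124).

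Ccr2 (chr9:124101918-124109140), the chemokine receptor by which monocytes leave the marrow, was at 0.835, 1.17, 0.858 and 0.279 CPM in IL4KO_chow and 1.49, 7.26 and 1.08 CPM in IL4KO_HFD. It was at 6.22, 9.26, 12.5 and 7.19 CPM in dKO_chow and 2.71, 0.989, 1.81 and 3.36 CPM in dKO_HFD. The interaction was -4.05 (SE 0.762, FDR 0.00175), with both diet effects called, -2.04 in dKO and 2.01 in IL4KO (FDR 0.0495), the latter with replicate 2 as the one library well above chow. Plac8 gave -2.63 (SE 0.499, FDR 0.00194) and Lyz2, the macrophage lysozyme gene, -2.09 (SE 0.421, FDR 0.00293).

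Genes listed as markers of Kupffer cells, the resident macrophages of the liver, showed the same sign. Of 16 markers 10 were called lower and 0 higher (median -1.25), with 12 falling in dKO and 1 in IL4KO, and the call count was 3 without IL4KO_HFD replicate 2 and 11 without dKO_HFD replicate 4. Among the 10 was Cdh5, which is also on the endothelial list. Its call was lost under 13 of 28 alternatives, among them leaving out IL4KO_HFD replicate 2 (FDR 0.259). C1qb (chr4:136880126-136886200), a chain of complement C1q, was at 48, 36.8, 33.3 and 33.2 CPM in IL4KO_chow and 36.5, 84.8 and 38.3 CPM in IL4KO_HFD. Its levels were 103, 113, 138 and 117 CPM in dKO_chow and 35.4, 34.9, 43 and 77.9 CPM in dKO_HFD, for an interaction of -1.80 (SE 0.399, FDR 0.00474). Replicate 2 of IL4KO_HFD and replicate 4 of dKO_HFD were the high libraries of their groups. C1qa gave -1.58 (FDR 0.00585), C1qc -1.59 (FDR 0.0064) and Csf1r, the growth factor receptor of macrophages, -1.60 (FDR 0.00783, and 0.0514 without IL4KO_HFD replicate 2).

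Cytokine and interferon genes were lower in the interaction beside the macrophage markers, and the part of macrophage content in them was not tested. Of 22 tested cytokines, chemokines and related genes 8 were called lower and 0 higher (median -1.74), 3 without IL4KO_HFD replicate 2 and 12 without dKO_HFD replicate 4. Ccl6, a myeloid chemokine gene, gave -2.09 (SE 0.355, FDR 0.00108) and Cxcl16, a ligand for T and NKT cells, -1.51 (SE 0.313, FDR 0.00267). Interferon gamma response and antigen presentation had 14 lower and 1 higher calls of 37 (median -0.64), with H2-DMa, of class II peptide loading, at -2.48 (FDR 0.00561), Ifngr1, the interferon gamma receptor gene, at -1.10 (FDR 0.00411), Tap2, the peptide transporter gene, at -0.67 (FDR 0.0049) and Ido2, of tryptophan breakdown, at 1.03 (FDR 0.00396). Those 14 were 3 without IL4KO_HFD replicate 2 and 21 without dKO_HFD replicate 4, and H2-DMa was not called without the first of these libraries (FDR 0.0959). The type I interferon response had 11 lower and 0 higher calls of 31 (median -0.50), 0 without IL4KO_HFD replicate 2, 7 without IL4KO_chow replicate 1 or dKO_chow replicate 3, 6 without dKO_HFD replicate 2 or 3 and 15 without dKO_HFD replicate 4.

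In the lists of IL-4, IL-10 and IL-6 signalling the share called in either direction lay near the 24.4% of all genes. Of 16 tested genes of IL-4 and IL-10 signalling and the type 2 response, 3 were called lower (18.8%) and 1 higher, with a median of -0.52. The list was higher in dKO_chow than in IL4KO_chow by a median of 1.03, and 10 members fell with the diet in dKO (4 without dKO_HFD replicate 2) against 0 in IL4KO. The called members were Il10ra, the ligand-binding IL-10 receptor chain, at -1.42 (FDR 0.0132), Il10rb, its shared partner chain, at -1.14 (FDR 0.00705), Il2rg, the common gamma chain that also serves the IL-4 receptor, at -2.14 (FDR 0.00523), and the higher call Arg1, liver arginase, at 0.59 (FDR 0.0165). All 4 lost their call without IL4KO_HFD replicate 2 (FDR 0.0616 to 0.15). The 3 lower calls were 5 without IL4KO_chow replicate 3 or IL4KO_HFD replicate 1 and with upper quartile scaling, and 7 without dKO_HFD replicate 4. Of 19 genes of IL-6 and STAT3 signalling 3 were called higher and 1 lower (15.8% and 5.26%, median 0.06), the lower one being Osmr, the oncostatin M receptor gene, at -1.45 (SE 0.334, FDR 0.00484). Its 3 higher calls were 0 without IL4KO_HFD replicate 2, 1 without IL4KO_chow replicate 2, IL4KO_HFD replicate 1, dKO_chow replicate 2 or 4, or dKO_HFD replicate 2, and 4 without dKO_HFD replicate 4.

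Markers of other cells were read beside these results, and their part in them was not tested. The 19 neutrophil markers summed to 8.08 to 120.4 CPM in IL4KO_chow, 39.0 to 136 CPM in IL4KO_HFD, 1331 to 1864 CPM in dKO_chow and 20.1 to 521 CPM in dKO_HFD, the highest of the last being replicate 4. Of 15 tested, 2 were called lower in the interaction (13.3%), Csf3r, the G-CSF receptor gene, at -2.98 (FDR 0.00199) and Lcn2, which hepatocytes also make, at -4.29 (FDR 0.0424, lost under 15 of 28 alternatives and 0.146 without IL4KO_HFD replicate 2), while all 15 fell with the diet in dKO and 0 changed in IL4KO. In single IL4KO libraries 4 to 13 of the 19 were at 0, and in dKO_chow 0. Cholangiocyte markers summed to 385 to 422 CPM in IL4KO_chow, 452 to 778 CPM in IL4KO_HFD, 975 to 1401 CPM in dKO_chow and 456 to 789 CPM in dKO_HFD, and 6 of 17 were called lower (median -0.92), 2 without IL4KO_HFD replicate 2 and 11 without dKO_HFD replicate 4. T and NK cell markers summed to 11.8 to 18.4 CPM in IL4KO_chow, 10.3 to 13.1 CPM in IL4KO_HFD, 26.5 to 38.2 CPM in dKO_chow and 11.3 to 22.3 CPM in dKO_HFD. They gave 2 higher and 2 lower interaction calls of 16 (12.5% each), near the 12.7% and 11.7% of all genes. With the diet 12 fell in dKO and 0 in IL4KO, beside 20.5% and 3.94% of all genes. Of 6 B and plasma cell markers 0 were called in the interaction, and 5 fell with the diet in dKO (3 without dKO_chow replicate 2, 3 or 4 or dKO_HFD replicate 1, 2 or 3) against 0 in IL4KO. Hepatocyte markers summed to 116290 to 144080 CPM in IL4KO_chow, 109320 to 157430 CPM in IL4KO_HFD, 100890 to 112530 CPM in dKO_chow and 149260 to 164010 CPM in dKO_HFD, and 9 of 16 rose with the diet in dKO against 1 in IL4KO. Their dKO sums thus moved in the direction of the metabolic lists, while 2 were called higher in the interaction (12.5%, against 12.7% of all genes) and 0 lower.

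Matrix genes were called lower, most of them only with IL4KO_HFD replicate 2 included. Of 47 tested members of the matrix and stellate activation list, 27 (57.4%) were called lower and 0 higher (median -1.29). The diet raised 22 of them in IL4KO, beside 5.14% of all genes. In dKO 0 of them rose and 6 fell, beside 19.4% and 20.5% of all genes, so matrix genes fell there less often than genes at large. The 22 were 1 without IL4KO_HFD replicate 2, 32 without IL4KO_HFD replicate 3 and 10, 13 and 14 without IL4KO_chow replicates 1, 3 and 4, and the 6 were 3 without dKO_chow replicate 2. The count of interaction calls was 6 without IL4KO_HFD replicate 2, 40 without IL4KO_HFD replicate 3 and 31 without dKO_HFD replicate 4. Dcn (chr10:97479500-97518163), which encodes the collagen-binding proteoglycan decorin, was at 138, 188, 155 and 149 CPM in IL4KO_chow and 200.5, 324 and 198 CPM in IL4KO_HFD, with no overlap. In dKO it was at 175, 209, 233 and 199 CPM on chow and 175, 155, 186 and 145 CPM on the high-fat diet, with overlap. The interaction was -0.92 (SE 0.194, FDR 0.00293), and it was called under all 28 alternatives.

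Col1a1, the main fibrillar collagen gene, shown after its values were seen, was at 3.34, 4.7, 3.43 and 3.06 CPM in IL4KO_chow and 18.7, 86 and 2.97 CPM in IL4KO_HFD. It was at 12.5, 19.1, 17.7 and 11.9 CPM in dKO_chow and 16.5, 3.54, 11.9 and 8.04 CPM in dKO_HFD. Its interaction was -3.94 (SE 1, FDR 0.01, and 0.102 without IL4KO_HFD replicate 2), and the 3 IL4KO_HFD livers covered nearly the whole range, replicate 3 at the level of chow and replicate 2 above every other library. Lum, a proteoglycan gene, gave -1.98 (SE 0.421, FDR 0.00352) and Timp2, a metalloproteinase inhibitor gene, -1.24 (SE 0.284, FDR 0.00489). Of 15 stellate cell markers 3 were called lower (median -0.18), among them Rgs5, a pericyte gene, at -1.64 (SE 0.336, FDR 0.00248). That count was 2 without IL4KO_HFD replicate 2 and without dKO_HFD replicate 4, and 5 without IL4KO_HFD replicate 3 or dKO_HFD replicate 1 and with upper quartile scaling.

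Cell cycle genes were called lower in 15 of 29 tested cases and higher in 1, Rrm2 (median -1.42), whose call was lost under 20 of 28 alternatives. The diet lowered 15 (8 without dKO_HFD replicate 2) and raised 2 of them in dKO and changed 0 in IL4KO. Top2a (chr11:98992947-99024199), the topoisomerase of dividing cells, was at 1.85, 1.26, 1.14 and 0.836 CPM in IL4KO_chow and 1.6, 4.47 and 1.21 CPM in IL4KO_HFD. It was at 3.21, 3.67, 6.89 and 2.66 CPM in dKO_chow and 2.11, 0.577, 0.975 and 1.25 CPM in dKO_HFD, so these are low levels. The dKO_chow libraries lay above those of IL4KO_chow and dKO_HFD without overlap, while IL4KO_HFD overlapped every other group. The interaction of Top2a was -2.70 (SE 0.679, FDR 0.0076) and was not called without IL4KO_HFD replicate 2 (FDR 0.0931). Ccna2, cyclin A2, gave -2.80 (FDR 0.00544, and 0.113 without that library) and Mcm3, of the replication helicase, -1.14 (FDR 0.00862). The count of 15 was 1 without IL4KO_HFD replicate 2, 9 without dKO_HFD replicate 2 and 16 without dKO_HFD replicate 4.

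**Figure D5:**
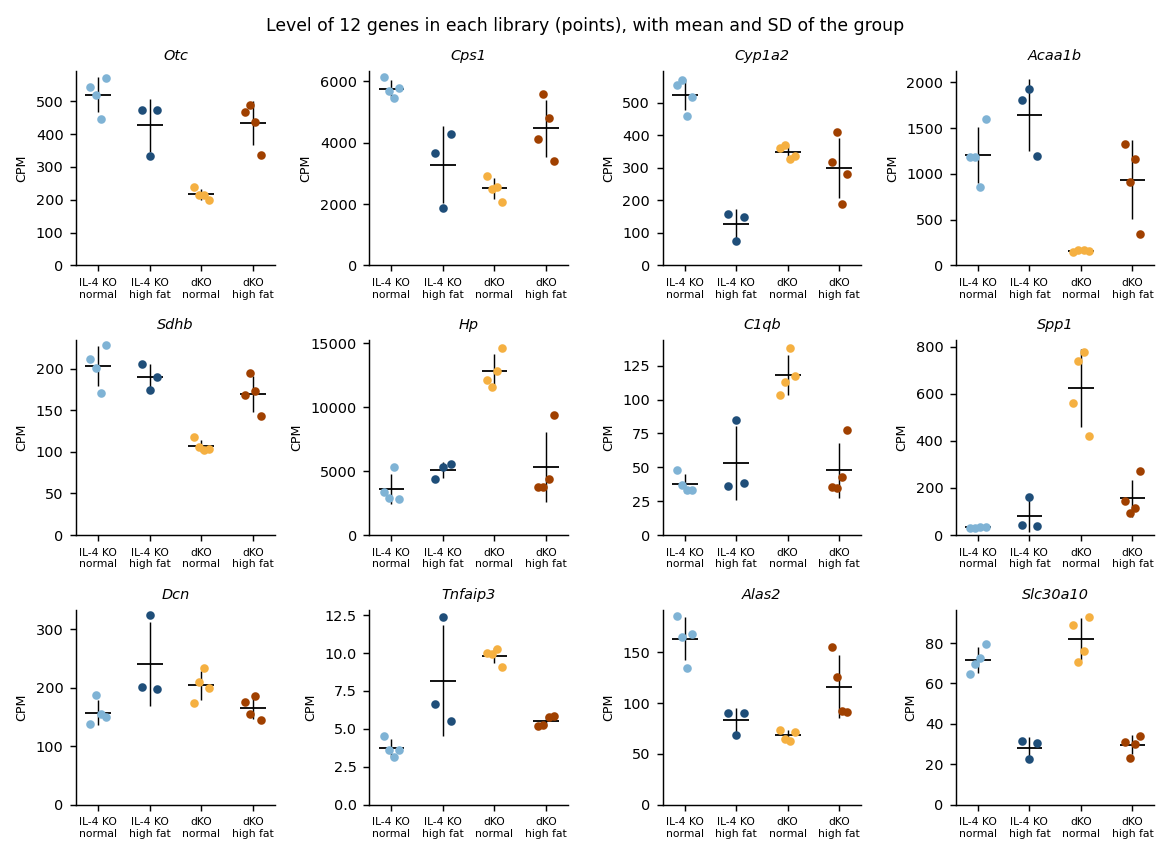
Level (CPM, vertical axes from 0) of 12 genes in each library (points) of the 4 groups, with the group mean (bar) and SD (line). Otc, Acaa1b and Sdhb are lowest in dKO on normal diet, Hp, C1qb and Spp1 highest there, and Slc30a10 falls on the high-fat diet in both genotypes.

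At 149 genes the diet effect was called in both genotypes and in opposite directions, 72 with a rise in dKO and 77 with a rise in IL4KO. The interaction is the difference of these 2 effects, so its call at all 149 nearly follows from that choice and adds no separate evidence. The number was 12 and 437 without IL4KO_HFD replicates 2 and 3, 62, 84, 94 and 77 without IL4KO_chow replicates 1 to 4, and 96 and 268 without dKO_HFD replicates 2 and 4. The interaction of the 5 genes with the smallest FDR among those at 5 CPM or more was called under all 28 alternatives. Over the 15 libraries left out in turn both diet effects were called each time for Alas2, Ctsa and Tnfaip3, 12 times for Kcnn2 and 8 times for Fam214a, and the IL4KO effects of Kcnn2 and Fam214a were not called without IL4KO_HFD replicate 2. Alas2 (chrX:150547417-150570622), the haem synthesis enzyme of red cell precursors, was at 186, 165, 135 and 168 CPM in IL4KO_chow and 89.7, 68.6 and 90.5 CPM in IL4KO_HFD. It was at 73.5, 64.4, 62.8 and 71.9 CPM in dKO_chow and 156, 126, 91.7 and 91.6 CPM in dKO_HFD, so the diets did not overlap in either genotype. The interaction was 1.75 (SE 0.221, FDR 0.00033). Among 7 tested erythroid markers 2 were called higher, Alas2 and the transcription factor gene Klf1 (1.10, FDR 0.0415, and 0.17 without IL4KO_HFD replicate 2), and 0 lower. The list as a whole showed no common shift, with 3 positive and 4 negative values and a median interaction of -0.025. The Klf1 call was lost under 13 of 28 alternatives.

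Fam214a (chr9:74952867-75032468) was at 199.9, 190.4, 181 and 209 CPM in IL4KO_chow and 143, 97.4 and 134 CPM in IL4KO_HFD. It was at 54, 61.9, 57.1 and 48.3 CPM in dKO_chow and 166, 176, 182 and 87.9 CPM in dKO_HFD, with an interaction of 2.12 (SE 0.265, FDR 0.00033). Kcnn2, a calcium-activated potassium channel gene, moved the same way, at 43.6, 40.9, 33.3 and 44.4 CPM in IL4KO_chow and 30.1, 24.5 and 30.9 CPM in IL4KO_HFD. Its levels were 19.7, 15.8, 19.6 and 16.3 CPM in dKO_chow and 33.2, 31.9, 34 and 23 CPM in dKO_HFD, with an interaction of 1.29 (SE 0.179, FDR 0.000349). For both genes the 2 diets did not overlap in either genotype.

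Ctsa (chr2:164832872-164841032), a lysosomal protease gene, and Tnfaip3 (chr10:19000910-19015410), which encodes A20, a brake on NF-kB, moved the opposite way. Ctsa was at 146, 142, 149.9 and 142 CPM in IL4KO_chow and 204, 227 and 191 CPM in IL4KO_HFD. It was at 216, 223, 227 and 228 CPM in dKO_chow and 175, 171, 187 and 202 CPM in dKO_HFD, and the interaction was -0.80 (SE 0.107, FDR 0.000349). The shift was small and the groups on the 2 diets did not overlap. Tnfaip3 was at 4.54, 3.61, 3.15 and 3.62 CPM in IL4KO_chow and 6.63, 12.4 and 5.53 CPM in IL4KO_HFD. It was at 10.01, 9.92, 10.3 and 9.1 CPM in dKO_chow and 5.19, 5.23, 5.81 and 5.86 CPM in dKO_HFD, and the interaction was -1.96 (SE 0.27, FDR 0.000349).

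Among called genes at 5 CPM or more in their highest group, predicted genes left aside, 6 of the 8 with the highest interaction values were major urinary protein genes, which encode male pheromone carriers made in the liver, and the others were Cfd at 6.38 and Tgoln2 at 6.09. The highest value was that of Mup17. Mup17 (chr4:61591929-61595865) was at 169, 137, 161 and 136 CPM in IL4KO_chow and 17, 4.14 and 176 CPM in IL4KO_HFD. It was at 3.78, 0.179, 0.292 and 0.934 CPM in dKO_chow and 201, 303, 67.6 and 40.1 CPM in dKO_HFD, with an interaction of 8.15 (SE 1.64, FDR 0.00315). Replicate 3 of IL4KO_HFD matched chow while replicates 1 and 2 were low. Reads of the Mup genes are near-identical and cannot be assigned with certainty, and these genes are also male-biased. Under the same limits the lowest value was that of Ly6d (chr15:74762056-74763567), a surface protein gene known as a lymphoid lineage marker, at 1.11, 0.813, 0.143 and 0.836 CPM in IL4KO_chow and 8.57, 87.3 and 1.35 CPM in IL4KO_HFD. It was at 2.68, 4.09, 4.43 and 3.5 CPM in dKO_chow and 2.86, 0.165, 2.6 and 1.17 CPM in dKO_HFD. Its interaction of -6.56 (SE 1.43, FDR 0.00453) was not called by limma-voom (adjusted p 0.0827), and IL4KO_HFD replicate 2 was far above all other libraries.

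More genes had diet effects called in the same direction in both genotypes than in opposite ones. The diet effect was called higher in both at 238 genes and lower in both at 126, of which 16 and 6 also had a called interaction. These numbers were 77 and 55 without IL4KO_HFD replicate 2, 136 and 68 without IL4KO_HFD replicate 1, 158 and 77 without IL4KO_chow replicate 1, 152 and 95 without IL4KO_chow replicate 2, 146 and 82 without IL4KO_chow replicate 3, and 369 and 182 without dKO_HFD replicate 4. Slc30a10 (chr1:185454848-185468762), a manganese exporter gene, was at 64.7, 69.6, 72.5 and 79.7 CPM in IL4KO_chow and 31.7, 22.5 and 30.5 CPM in IL4KO_HFD. It was at 88.7, 70.5, 76 and 93 CPM in dKO_chow and 30.9, 22.9, 30.2 and 34.1 CPM in dKO_HFD. The diet effect was -1.34 in IL4KO and -1.48 in dKO, and the 95% interval of their difference ran from -0.60 to 0.33. Treh (chr9:44673233-44686305), the trehalase gene, was at 1.67, 2.71, 2.72 and 4.18 CPM in IL4KO_chow and 9.71, 14.9 and 8.91 CPM in IL4KO_HFD. Levels of Treh were 2.59, 2.42, 3.09 and 2.66 CPM in dKO_chow and 10.9, 9.48, 11.4 and 5.39 CPM in dKO_HFD, with an interval of -1.09 to 0.65, which leaves room for differences of either sign. Bckdhb (chr9:83925111-84124240), of branched-chain amino acid oxidation, was at 65.1, 67.5, 67.5 and 72.3 CPM in IL4KO_chow and 92.3, 90.1 and 92.3 CPM in IL4KO_HFD. It was at 57.8, 56.7, 59 and 59.3 CPM in dKO_chow and 81.4, 78.6, 78.8 and 81.4 CPM in dKO_HFD, and its interval of -0.16 to 0.22 was narrower than those of Slc30a10 and Treh. These genes were named because their interaction was not called and had p above 0.5, so their likeness is a description.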

How the data were processed

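Liver RNA-seq of 23 mice was used, 15 of them knockouts, grouped by the genotype and diet labels. Per the submitters' processing notes the authors used bcl2fastq 2.16, TopHat2 2.0.8 and Partek with the mm10 build. The annotation and the counting and strand settings are not given. Estimated counts deposited by the authors cover 24440 genes (6462 at 0 everywhere), and their deposited log2 values cover 14078. Estimated counts were rounded to whole numbers. edgeR 4.0.16 in R 4.3.3 was fitted to all 23 libraries with 6 group means, TMM scaling, its filter by group and robust quasi-likelihood estimation (17 residual degrees of freedom, biological coefficient of variation 0.156). P-values are two-sided and were adjusted by Benjamini-Hochberg over the 12891 genes left. The SE follows from the log2 value and its F statistic, and CPM use TMM-scaled totals.

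Named genes were Il4 and Il10, up to 8 per direction by size (at least 5 CPM in the highest group), up to 4 by FDR from each list with at least 3 called members, up to 5 with opposite diet effects and up to 6 with shared ones, without predicted genes. A subset is printed, and the 29 genes given per library were picked after values were seen. Members, lists and tests were chosen with earlier results of these data known. Alternatives were RLE and upper quartile scaling, no and strict filters, DESeq2 1.42.0, limma-voom and limma on the log2 values (limma 3.58.1), the knockout libraries alone, no robust estimation, thinning, glmTreat and leaving out libraries. Leaving out dKO_HFD replicate 4 with IL4KO_HFD replicate 2 was added after seeing the data. In simulated data of 12891 genes the fit recovered 17.9%, 55.2% and 86.4% of the 67, 67 and 66 genes planted at 1.5-, 2- and 4-fold in the interaction, with 6.19% of 113 calls false. Far fewer genes changed there than the 3144 called in the data, which makes the same FDR harder to reach. No outlying library was simulated, so neither the recovery nor the false share carries over to the data. Promoters and positions came from RefSeq tables of GRCm38.p6, the build of mm10.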

Additional observations from a re-analysis of the deposited data

Results flagged for a closer look

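The interaction itself is a test that 2 genotypes differ in their diet effect, and 1636 genes were called higher in it and 1508 lower. The 5 genes named for diet effects called in opposite directions met the same criterion, with interaction values of 1.75 for Alas2, 2.12 for Fam214a, -0.80 for Ctsa, -1.96 for Tnfaip3 and 1.29 for Kcnn2 on the log2 scale. They were chosen for diet effects called in both genotypes and, among those, for the smallest interaction FDR. Their interaction was called under all 28 alternatives, which reuse the same libraries, so this is no separate support. Without IL4KO_HFD replicate 2 the IL4KO diet effect was not called for Fam214a (FDR 0.289) or Kcnn2 (FDR 0.181).

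Among the 29 genes whose library values were examined, 87 sets of 4 libraries were searched for a library far from the rest of its set. Chance alone gives about 1 in 20, so the 2 that were found are no more than chance gives. Both were dKO_HFD replicate 4, with Orm2 at 267 CPM against 8.7 to 20.3 CPM in the rest of its group, and Hp at 9395 CPM against 3740 to 4403 CPM. The IL4KO_HFD group has 3 libraries and was not searched. In the same library the neutrophil markers summed to 521 CPM, against 20.1 to 75.1 CPM in the other dKO_HFD libraries. The part of those cells in its acute phase levels was not tested.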

How the results depend on the processing

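The number of called genes was 3144 (1636 higher, 1508 lower). Over single libraries left out it ran from 1293 to 4190, from 856 to 2147 higher and from 437 to 2043 lower, and the number of lists with at least 3 called members, 31 with all libraries, ran from 16 to 33. The lowest values were those without IL4KO_HFD replicate 2 and the highest those without dKO_HFD replicate 4. Without the former, 1276 genes were shared with the 3144 (40.6% of them). Thinning all libraries to the smallest gave 1975 calls (1078 higher, 897 lower), with fewer reads by construction. A test against a minimum change of 1.2-fold (glmTreat) gave 1741 (760 higher, 981 lower), a stricter question by construction. RLE scaling, filters, DESeq2 (3442), limma-voom (3049), the knockout libraries alone (2506) and the fit without robust estimation stayed within 1.5 times of 3144, as did the deposited log2 values (2887) and upper quartile scaling (3044). Without dKO_HFD replicate 4 and IL4KO_HFD replicate 3 there were 4698 calls, and without dKO_HFD replicate 4 and IL4KO_HFD replicate 2 there were 2781. Of 162 tested genes chosen by the naming rule or named after their values were seen, 154 were called, and these kept their sign in each of the 26 to 28 alternatives that gave them a value. Without IL4KO_HFD replicate 2, 62 of the 154 were not called. Of the 8 not called, 6 changed sign in some alternative, and Il10 turned from 1.26 to -1.04 with a call on the deposited log2 values (limma, adjusted p 0.0398). Of 30 list counts of 3 or more, 29 were lower without that library, 22 by over 1.5 times, and 27 were higher without dKO_HFD replicate 4. The cause of these shifts was not tested. With IL4KO_HFD at 3 mice and 7.79 to 8.94 in units of 1e6 counts, genes not called may still differ. Changes of 1.5-fold were recovered at 17.9% in simulated data, a rate that does not carry over, as far fewer genes changed there. No paired analysis was possible because the labels carry no replicate numbers.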

Other observations

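Shares called in the lists of cell maintenance lay nearer those over all genes. Ribosomal protein genes were called lower in 6 of 34 cases (17.6%, against 11.7% of all genes) and higher in 0 (median -0.28), with Rps6 at -0.44 (FDR 0.0192), and 29 of them fell with the diet in dKO against 3 in IL4KO (0 without IL4KO_HFD replicate 1). Rps6 was not called without IL4KO_HFD replicate 1 (FDR 0.0545). The count of 6 was 2 without IL4KO_HFD replicate 2, 3 without IL4KO_chow replicate 4 or IL4KO_HFD replicate 1, 12 with upper quartile scaling and 15 without dKO_HFD replicate 4, and these genes have many processed pseudogenes that can share reads. Proteasome genes were called higher in 5 of 32 cases (15.6%, against 12.7% of all genes, median 0.11), among them Psmb7, of the catalytic core, at 0.39 (FDR 0.0132), with 2 calls without IL4KO_HFD replicate 2 or with upper quartile scaling, 3 without dKO_HFD replicate 2 and 7 without dKO_HFD replicate 4. The unfolded protein and integrated stress response was called higher in 3 of 30 genes and lower in 1 (10% and 3.33%), both below the 12.7% and 11.7% of all genes, with Ern1, the stress sensor IRE1, at 1.02 (FDR 0.00378) and Herpud1, of protein removal from the endoplasmic reticulum, at 1.14 (FDR 0.00513), and the 3 were 2 without IL4KO_HFD replicate 2 and 4 without dKO_HFD replicate 4. NRF2 targets of the oxidative stress response gave 4 lower and 2 higher calls of 23 (17.4% and 8.7%), with Cyp2a5 at 2.45 (FDR 0.00142), and its reads are shared in part with Cyp2a4. The 4 lower calls were 0 without IL4KO_HFD replicate 2, 10 without IL4KO_HFD replicate 3, 5 without dKO_HFD replicate 4, and 2 without IL4KO_chow replicates 1, 3 or 4, dKO_chow replicates 1, 2 or 4, or dKO_HFD replicate 2.

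Endothelial markers gave 2 higher calls of 21 (9.52%) and 1 lower (4.76%), both below the 12.7% and 11.7% of all genes, with a median of 0.11. The higher calls were Kdr, the VEGF receptor gene, at 0.64 (FDR 0.00125) and Dnase1l3, a sinusoidal nuclease gene, at 0.50 (FDR 0.00222). The lower call was Cdh5, lost without IL4KO_HFD replicate 2 (FDR 0.259). Of 7 adipocyte markers 3 could be tested and 2 were called higher, Cfd at 6.38 (FDR 0.0392) and Car3, which hepatocytes of males also express, at 3.99 (SE 0.446, FDR 0.000164). Cfd was at a mean of 4.67 CPM in IL4KO_chow, 19.2 CPM in IL4KO_HFD, 0.0564 CPM in dKO_chow and 25.8 CPM in dKO_HFD, and its call was lost under 18 of the 28 alternatives. Pancreas, muscle and mast cell lists had 1 tested member each, of which Cela1 was called higher at 1.78 (FDR 0.00206). Mesothelial markers were called lower in 2 of 5 cases, Krt19 and Gpm6a, and neither was called without IL4KO_HFD replicate 2 (FDR 0.207 and 0.173). These genes, other than Kdr, Dnase1l3, Cdh5 and Cfd, were named after their values were seen.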
